A study of Mus musculus with 6 samples.

Results

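A list of 41 genes known for DNA replication and S phase was followed in injured carotid arteries of SMC-IRF9-TG and NTG mice. The members were found by their symbols and fall into 4 groups, namely licensing and origin firing (16 genes), the replication fork and chromatin assembly (15 genes), nucleotide supply (6 genes) and E2F factors (4 genes). Of these, 40 were measured by a probe set that names the gene alone, out of 18193 genes measured in this way. The exception was Chaf1a, a subunit of the histone chaperone that assembles chromatin behind the fork, which was not analysed here. SMC-IRF9-TG mice carry a full-length mouse cDNA of IRF9, a transcription factor of interferon signalling, with an HA tag and under a mouse SM22α promoter, which is active in smooth muscle cells. NTG mice lack the transgene. Both groups were of the C57BL/6 strain (C57BL/6J in the study's methods, which give males 10 to 12 weeks old), and their arteries were taken 14 days after wire injury. Each Affymetrix array held the RNA of 3 to 5 vessels combined in a tube, with 3 pools per genotype, and no uninjured artery was analysed here. The p-values therefore measure the spread between pools.

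Before S phase, the origin recognition complex, Cdc6 and Cdt1 load the ring-shaped MCM2-7 helicase onto DNA, and geminin prevents another loading within the same cycle. Cdc45 and the GINS complex then switch the helicase on, and primase and DNA polymerases copy both strands while the sliding clamp PCNA holds the polymerase to its template. Deoxynucleotides are supplied by ribonucleotide reductase and by salvage kinases, and E2F factors drive transcription of many of these genes as cells leave G1. Medial smooth muscle cells are normally quiescent and can re-enter the cycle after arterial injury, as can the leukocytes and adventitial cells of an injured wall.

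Of the 40 measured members, 5 were higher in SMC-IRF9-TG arteries at an adjusted p under 0.05 (limma, Benjamini-Hochberg over 45037 probe sets) and 0 were lower. The 5 were the sliding clamp gene Pcna, the helicase gene Mcm5 and the nucleotide supply genes Rrm2, Dut and Tk1, which were 2.87-fold to 7.94-fold higher. They made up 12.5% of the members, against 3.11% of all genes higher and 0.511% of all genes lower. The median member difference was 0.35 on the log2 scale, against -0.05 for all genes. With no adjustment, 13 of the 40 members were higher at a limma p under 0.05 and 0 were lower, against 2706 and 1784 of the 18193 genes. The count was 3, 2 and 3 without SMC-IRF9-TG pool 1, 2 or 3, and Pcna and Rrm2 passed in each fit that left out a single pool. In bulk arteries, fewer cells of a type and less RNA per cell cannot be told apart.

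Levels are log2 RMA values, that is, probe intensities after background correction, normalization and summary over the probes of a set, so a difference of 1 is a 2-fold change. Each gene is given by its brightest probe set over the 6 arrays. The level of 1 probe set cannot be set against that of another. Differences are SMC-IRF9-TG minus NTG.

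The promoters of 4 of the 5 members that passed are shown, because these genes differed in the same direction and many S phase promoters are read by E2F factors. Each sequence comes from RefSeq (GRCm38.p6) and runs 5′ to 3′ on the strand of the gene, from 250 bases before its start to 50 bases after it. Capitals mark the E2F words TTTCCCGC, TTTGGCGC, TTTCGCGC and TTTGCCGC and the word CCAAT, which the factor NF-Y reads, all searched on both strands, so that ATTGG is CCAAT on the other strand. Pcna lies at chr2:132253131-132253430 on the minus strand, Rrm2 at chr12:24708004-24708303 on the plus strand, Tk1 at chr11:117825965-117826264 on the minus strand and Mcm5 at chr8:75109259-75109558 on the plus strand.
Pcna: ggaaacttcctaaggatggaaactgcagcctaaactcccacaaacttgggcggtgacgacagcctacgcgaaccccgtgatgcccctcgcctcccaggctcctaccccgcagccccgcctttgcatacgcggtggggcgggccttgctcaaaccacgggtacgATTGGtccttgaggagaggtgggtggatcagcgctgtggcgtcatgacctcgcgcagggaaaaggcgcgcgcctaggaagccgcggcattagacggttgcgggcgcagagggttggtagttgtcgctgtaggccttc
Rrm2: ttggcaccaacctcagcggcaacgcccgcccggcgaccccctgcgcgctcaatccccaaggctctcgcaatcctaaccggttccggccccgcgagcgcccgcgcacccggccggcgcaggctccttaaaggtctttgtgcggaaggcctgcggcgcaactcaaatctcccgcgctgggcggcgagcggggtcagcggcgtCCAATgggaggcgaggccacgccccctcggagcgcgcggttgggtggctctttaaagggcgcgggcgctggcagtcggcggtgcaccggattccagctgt
Tk1: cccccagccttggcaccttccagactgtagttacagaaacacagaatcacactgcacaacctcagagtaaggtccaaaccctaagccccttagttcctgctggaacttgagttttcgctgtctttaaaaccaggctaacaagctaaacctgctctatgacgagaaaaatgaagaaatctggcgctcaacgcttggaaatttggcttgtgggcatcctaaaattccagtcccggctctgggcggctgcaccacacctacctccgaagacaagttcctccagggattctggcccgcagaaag
Mcm5: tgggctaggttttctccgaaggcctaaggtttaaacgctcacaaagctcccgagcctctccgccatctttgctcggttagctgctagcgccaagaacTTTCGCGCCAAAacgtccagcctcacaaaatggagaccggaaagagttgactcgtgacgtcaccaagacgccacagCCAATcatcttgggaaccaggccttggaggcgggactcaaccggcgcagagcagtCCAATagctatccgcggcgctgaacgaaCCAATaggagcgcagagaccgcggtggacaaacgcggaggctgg

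Mcm5 held 2 E2F matches on opposite strands that overlap in a single stretch, and 3 CCAAT words. Pcna and Rrm2 held 1 CCAAT word each and no E2F word in this window. Tk1 held neither, and nor did Dut, which is not printed. Over the 35 members with a promoter in the table, 13 (37.1%) held an E2F word, against 2.6% of the 27025 genes in the table (2.26% of 32851 promoters). CCAAT was found for 22 members (62.9%), against 41.1% of all genes (37.4% of promoters). Gins1, Gins2, Gmnn, Mcm4, Pole and Rfc2 were not matched. Of the 5 members that passed, 1 held an E2F word and 3 held CCAAT. A match describes the letters in a window of 300 bases and is no more than that.

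Some features of the arrays moved with the groups or set single pools apart. Smooth muscle markers were high in both groups, with a mean level over 8 genes of 9.53 to 9.82 in SMC-IRF9-TG pools, against 8.94 to 10.01 in NTG pools, and 0 of the 8 passed in limma (0 at an unadjusted p under 0.05). The Irf9 probe set read 5.46, 5.41 and 5.58 in SMC-IRF9-TG pools, against 4.75, 5.43 and 5.36 in NTG pools, an overlap; it is not known whether its probes lie in the transgene, so it does not check the labels. Xist, the RNA of the inactive X chromosome of female cells, was at 2.94 to 3.72 in SMC-IRF9-TG pools, against 9.94, 9.50 and 4.08 in NTG pools, so NTG pools 1 and 2 went against the stated male animals. NTG pool 2 also had the largest gap between the 3′ and 5′ probe sets of Actb, 7.09 against 1.56 to 3.04 in the other 5 arrays. The poly-A spike controls were lowest in SMC-IRF9-TG pools 1 and 2 (4.66 and 4.22) and at 6.95 to 10.64 in the other 4 arrays. Without NTG pools 1 and 2, 4 members passed (Tk1 did not), with the lone NTG pool assumed to vary like the SMC-IRF9-TG pools, which had the smaller median SD over members (0.21 in SMC-IRF9-TG and 0.33 in NTG). Without NTG pool 2, all 5 passed. Without SMC-IRF9-TG pools 1 and 2, with a lone pool assumed to vary like the NTG pools, 0 of the 40 members passed.

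Some of the markers used for other cells moved with the groups. Of 14 macrophage markers, 13 were higher in SMC-IRF9-TG and 0 were lower, with a mean level of 7.69 to 7.94 in SMC-IRF9-TG pools, against 3.71 to 4.43 in NTG pools. The one that did not pass, Itgam, was dim in both groups. All 5 fibroblast markers were higher, with a median difference of 1.84. They include the matrix genes Col1a1, Col1a2, Dcn and Lum. The study describes smooth muscle cells that secrete matrix after injury, so these genes do not mark fibroblasts alone. Of the T cell, B cell and endothelial markers, 0 of 5, 0 of 3 and 0 of 5 passed in limma, with 1, 0 and 0 higher at an unadjusted p under 0.05. The adipocyte, skeletal muscle and thyroid markers had 0 of 3, 0 of 5 and 0 of 2 that passed, with 0, 2 and 1 lower at that unadjusted p. The part of the macrophage and fibroblast markers, and of the unequal poly-A controls, in the differences of the replication genes was not tested.

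Nucleotide supply held 3 of the 5 members that passed, out of 6 measured (50%, against 3.11% of all genes higher), with a median difference of 1.08. Rrm2 encodes the small subunit of ribonucleotide reductase, the enzyme that makes deoxynucleotides from ribonucleotides. Its brightest probe set (1434437_x_at) read 6.02, 6.00 and 5.88 in SMC-IRF9-TG pools, against 3.20, 3.07 and 3.62 in NTG pools. The groups were far apart, and the SMC-IRF9-TG pools lay within a narrow band. Rrm2 averaged 5.97 ± 0.07 in SMC-IRF9-TG and 3.30 ± 0.29 in NTG (SD, n = 3 each), a difference of 2.67 (SE 0.21, 95% interval 2.19 to 3.15, limma adjusted p = 9.2e-04) or 6.38-fold. The next brightest probe set (1448226_at) read 4.63, 4.92 and 4.61 in SMC-IRF9-TG pools, against 3.11, 3.13 and 3.40 in NTG pools, and passed as well, with a difference of 1.51 (limma adjusted p = 0.00808). A further, dimmer one (1416120_at) read 3.03, 3.09 and 2.95 in SMC-IRF9-TG pools, against 3.27, 3.36 and 3.15 in NTG pools. On that probe set every SMC-IRF9-TG pool was below every NTG pool, with a difference of -0.23 that did not pass (limma adjusted p = 0.443). Rrm2 thus passed on 2 of its 3 probe sets, and the larger difference came from a probe set with the _x_at suffix, by which Affymetrix marks those that may also match other transcripts.

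Dut encodes dUTPase, which removes dUTP and so keeps uracil out of DNA. It read 6.37, 6.56 and 6.43 in SMC-IRF9-TG pools, against 4.38, 5.17 and 5.02 in NTG pools. The groups did not overlap, and NTG pool 1 was the lowest. Dut averaged 6.45 ± 0.10 in SMC-IRF9-TG and 4.86 ± 0.42 in NTG (SD, n = 3 each), and the difference was 1.60 (SE 0.24, 95% interval 1.04 to 2.15, limma adjusted p = 0.0145) or 3.02-fold. Its other probe set (1419269_at) read 3.27, 3.26 and 3.74 in SMC-IRF9-TG pools, against 3.25, 3.05 and 2.59 in NTG pools, with a difference of 0.46 that did not pass (limma adjusted p = 0.289). Dut itself no longer passed without SMC-IRF9-TG pool 1, 2 or 3 (limma adjusted p = 0.0601, 0.0815 and 0.0646).

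Tk1 encodes the cytosolic thymidine kinase of the salvage route, whose level is known to rise at the start of S phase. Its only probe set (1416258_at) read 4.14, 5.12 and 4.65 in SMC-IRF9-TG pools, against 3.25, 3.14 and 2.94 in NTG pools. Here the SMC-IRF9-TG pools spread more than the NTG pools, and the groups did not overlap. Tk1 averaged 4.63 ± 0.49 in SMC-IRF9-TG and 3.11 ± 0.15 in NTG (SD, n = 3 each), 1.52 apart (SE 0.27, 95% interval 0.91 to 2.13, limma adjusted p = 0.0253) or 2.87-fold. It passed in 2 of the 6 fits that left out a pool and was lost without SMC-IRF9-TG pool 2 or 3 (limma adjusted p = 0.0944 and 0.096) or NTG pool 1 or 3 (0.0696 and 0.0509).

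The other nucleotide supply genes did not pass. Rrm1, the large subunit of ribonucleotide reductase and the partner of Rrm2, read 6.22, 6.51 and 6.07 in SMC-IRF9-TG pools, against 5.57, 5.74 and 5.60 in NTG pools. Its groups did not overlap, and the difference was 0.63 (SE 0.20, 95% interval 0.18 to 1.08, limma adjusted p = 0.129). Of its dimmer probe sets, one gave -0.17, with overlap, and the other had both group means under the lower quartile of their arrays, so no size is given. Thymidylate synthase, Tyms, which makes dTMP, read 2.37, 2.25 and 2.35 in SMC-IRF9-TG pools, against 2.57, 3.22 and 2.39 in NTG pools, and its SMC-IRF9-TG mean lay under that quartile (2.38), so no size is given here either. Ung, which removes uracil from DNA, differed by 0.06 (95% interval -0.35 to 0.47).

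**Figure D1:**
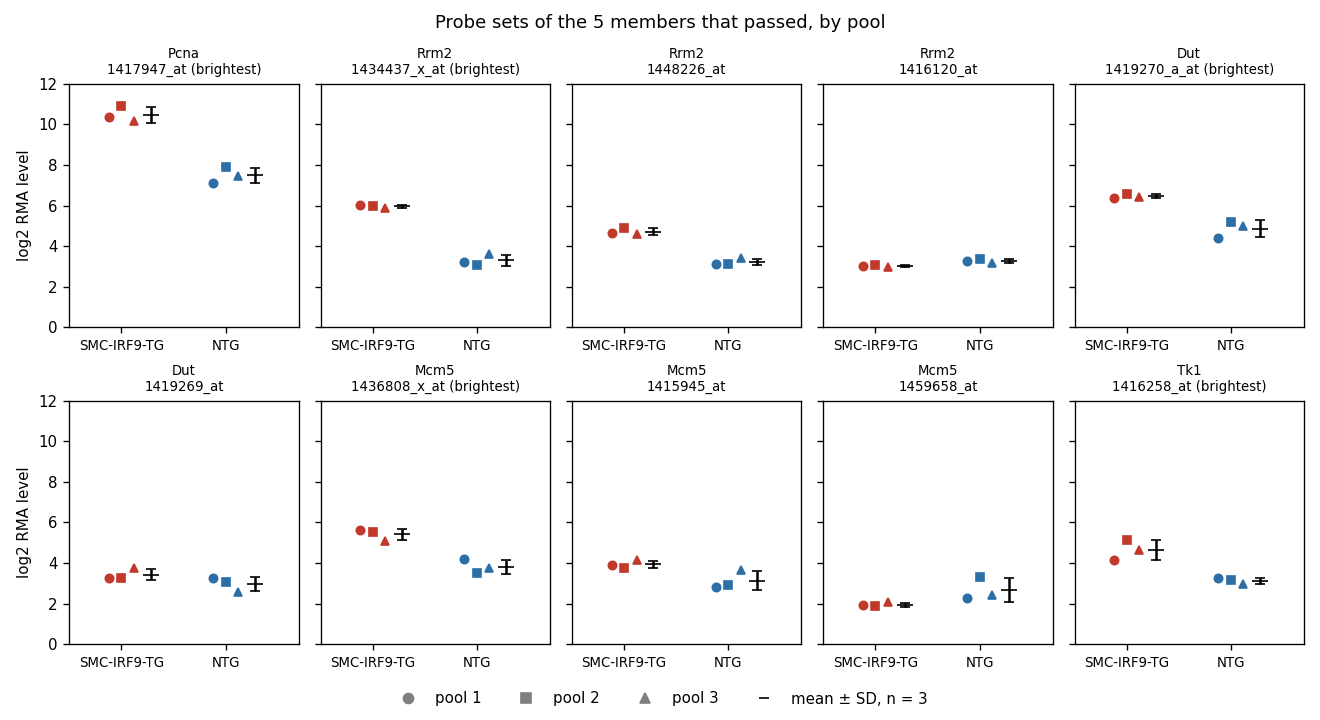
Log2 RMA level (vertical axis) of every probe set of the 5 members that passed, in 3 SMC-IRF9-TG pools (red, left) and 3 NTG pools (blue, right), with black bars for the mean ± SD. Pcna has the widest gap, Rrm2 is apart on 2 of its 3 probe sets, and the dimmer probe sets of Dut and Mcm5 differ less or the other way, the Mcm5 one with a dim SMC-IRF9-TG mean.

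In the fork and chromatin assembly group, 1 of 14 measured genes passed (7.14%, against 3.11% of all genes higher). The median difference of the group was 0.27. Pcna encodes the clamp that encircles DNA and tethers the polymerases. Its only probe set (1417947_at) read 10.35, 10.93 and 10.18 in SMC-IRF9-TG pools, against 7.12, 7.88 and 7.48 in NTG pools. Pool 2 was the highest of its group in both genotypes, and the lowest SMC-IRF9-TG pool was above the highest NTG pool. Pcna averaged 10.48 ± 0.39 in SMC-IRF9-TG and 7.49 ± 0.38 in NTG (SD, n = 3 each), a difference of 2.99 (SE 0.28, 95% interval 2.36 to 3.62, limma adjusted p = 0.00186) or 7.94-fold, the largest among the 40 members. It passed in all 6 fits that left out a pool, with adjusted p from 0.00393 to 0.0156.

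The genes whose products work with the clamp did not pass. Rfc2, Rfc3, Rfc4 and Rfc5, subunits of the clamp loader that opens the PCNA ring, differed by 0.16 to 0.30, with adjusted p (limma) of 0.472 to 0.622. Lig1, the ligase that seals Okazaki fragments and binds PCNA, read 5.38, 5.43 and 5.48 in SMC-IRF9-TG pools, against 4.97, 4.75 and 4.75 in NTG pools. Its groups did not overlap, and the difference was 0.61 (SE 0.18, 95% interval 0.19 to 1.02, limma adjusted p = 0.117). Fen1, the nuclease that trims Okazaki fragments, read 7.41, 6.76 and 7.26 in SMC-IRF9-TG pools, against 7.07, 7.36 and 7.49 in NTG pools, an overlap with a difference of -0.16 (95% interval -0.70 to 0.37) on its brightest probe set, which has the _x_at suffix. Its other probe set (1421731_a_at) read 3.66, 3.47 and 3.45 in SMC-IRF9-TG pools, against 2.87, 2.89 and 2.81 in NTG pools. There the groups did not overlap and the difference was 0.67, in the opposite direction (95% interval 0.26 to 1.08, limma adjusted p = 0.0919).

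Pola1 and Prim1 encode the catalytic subunits of polymerase alpha and primase, and Pole and Pold1 those of the main replicative polymerases. On their brightest probe sets they differed by -0.33 to 0.48, and all 4 overlapped between the groups. On the other Pola1 probe set (1459319_at) every SMC-IRF9-TG pool was below every NTG pool. Its SMC-IRF9-TG mean lay under the lower quartile, so no size is given. The other Prim1 and Pold1 probe sets gave -0.45 and 0.55, opposite in sign to the brightest, and overlapped. Rpa1, the large subunit of the protein that coats single-stranded DNA, read 7.80, 8.04 and 7.97 in SMC-IRF9-TG pools, against 8.19, 8.17 and 7.84 in NTG pools. These overlapped, with a difference of -0.13 (95% interval -0.58 to 0.32, limma adjusted p = 0.695), and the other Rpa1 probe set gave 0.41. Chaf1b, another subunit of the histone chaperone, read 2.70, 2.29 and 2.71 in SMC-IRF9-TG pools, against 2.84, 3.03 and 2.94 in NTG pools. Its SMC-IRF9-TG pools were all below the NTG pools, with a difference of -0.37 that did not pass (95% interval -0.83 to 0.09, limma adjusted p = 0.298). The other Chaf1b probe set (1423877_at) overlapped, with an NTG mean under the lower quartile. Intervals such as those of Rpa1 and Chaf1b leave differences of about the size of their bounds undecided.

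In licensing and origin firing, 1 of 16 genes passed (6.25%, against 3.11% of all genes higher), and the median difference was 0.42. Mcm5, a subunit of the helicase ring, read 5.62, 5.52 and 5.08 on its brightest probe set (1436808_x_at) in SMC-IRF9-TG pools, against 4.18, 3.51 and 3.75 in NTG pools. The groups did not overlap. The means were 5.41 ± 0.29 in SMC-IRF9-TG and 3.81 ± 0.34 in NTG (SD, n = 3 each), a difference of 1.59 (SE 0.25, 95% interval 1.03 to 2.15, limma adjusted p = 0.0152) or 3.02-fold. The next probe set (1415945_at) read 3.88, 3.76 and 4.14 in SMC-IRF9-TG pools, against 2.81, 2.90 and 3.67 in NTG pools, a difference of 0.80 (limma adjusted p = 0.144). The dimmest (1459658_at) read 1.93, 1.86 and 2.06 in SMC-IRF9-TG pools, against 2.25, 3.33 and 2.43 in NTG pools, and its SMC-IRF9-TG mean lay under the lower quartile. Without SMC-IRF9-TG pool 1 or 2 the brightest no longer passed (limma adjusted p = 0.0768 and 0.0851). Mcm5 passed on 1 of 3 probe sets, and that one carries the _x_at suffix too.

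The 6 subunits of the MCM2-7 ring all had a positive difference on their brightest probe sets, from 0.29 (Mcm2) to 1.59, and only Mcm5 passed. For 5 of the 6 the SMC-IRF9-TG pools were all above the NTG pools, against 16.1% of all genes, the exception being Mcm4, whose other probe set did separate in that direction (0.59, limma adjusted p = 0.151). Mcm7 read 7.28, 7.23 and 6.90 in SMC-IRF9-TG pools, against 6.38, 6.43 and 6.44 in NTG pools, a difference of 0.72 (SE 0.19, limma adjusted p = 0.0898). Mcm6 read 6.91, 7.33 and 7.08 in SMC-IRF9-TG pools, against 5.96, 6.87 and 6.48 in NTG pools, a difference of 0.67 (SE 0.26, limma adjusted p = 0.191). Mcm3 read 4.95, 4.86 and 4.99 in SMC-IRF9-TG pools, against 3.79, 3.79 and 4.54 in NTG pools, a difference of 0.90 (SE 0.25, limma adjusted p = 0.0951). In these 3 genes the lowest SMC-IRF9-TG pool was above the highest NTG pool, by small margins for Mcm6. The dimmer probe sets gave 1.01, 0.53 and -0.02 for Mcm7 and -0.03 for Mcm6, whose dimmest one had both group means under the lower quartile. The other Mcm2 probe set (1448777_at) gave 0.92, with every SMC-IRF9-TG pool above every NTG pool (limma adjusted p = 0.062). The dimmer Mcm3 ones gave 1.11, 0.77 and 0.07, and the dimmest had both group means under the lower quartile. Over all 19 probe sets of the 6 genes, 14 had a positive and 5 a negative difference, and 1 passed. Of the 5, 3 had a group mean under the lower quartile, where no size is given.

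**Figure D2:**
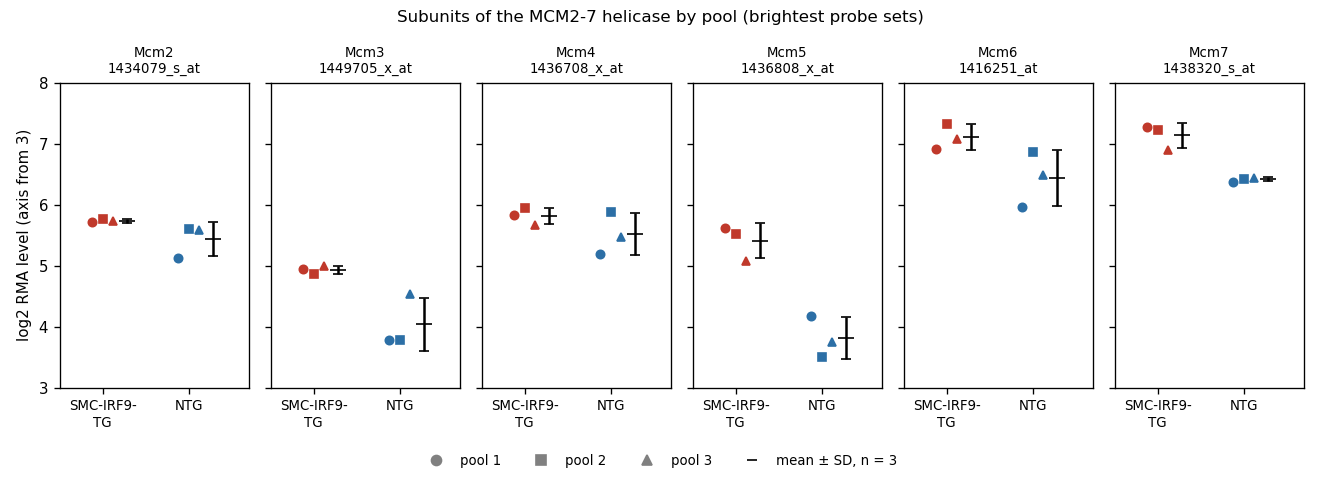
Log2 RMA level (vertical axis, from 3) of the brightest probe set of each MCM2-7 subunit in 3 SMC-IRF9-TG pools (red, left) and 3 NTG pools (blue, right), with black bars for the mean ± SD. Mcm5 shows the widest separation, and the Mcm4 pools overlap.

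The loading and activating factors around the ring did not pass. Among the origin recognition genes, Orc1 read 5.33, 5.37 and 5.37 in SMC-IRF9-TG pools, against 5.89, 5.51 and 5.52 in NTG pools, with no overlap and a difference of -0.29 (limma adjusted p = 0.39), and Orc2 and Orc6 overlapped. Cdt1 read 6.20, 5.27 and 5.52 in SMC-IRF9-TG pools, against 5.36, 6.53 and 5.13 in NTG pools, an overlap with a wide interval of the difference (-0.91 to 0.89). A dimmer Cdt1 probe set (1424144_at) had every SMC-IRF9-TG pool above every NTG pool, with a difference of 0.78 that did not pass (95% interval 0.13 to 1.43, limma adjusted p = 0.167). On another (1455791_at) every SMC-IRF9-TG pool was below, with both group means under the lower quartile of their arrays. Gmnn, the gene of geminin, the inhibitor of Cdt1, read 5.11, 4.89 and 4.65 in SMC-IRF9-TG pools, against 4.62, 3.94 and 4.31 in NTG pools. It differed by 0.59 (SE 0.24, limma adjusted p = 0.196), and its groups did not overlap. Gins2 read 4.50, 4.53 and 4.48 in SMC-IRF9-TG pools, against 3.15, 3.62 and 4.37 in NTG pools, a difference of 0.79 (SE 0.30, limma adjusted p = 0.179). Its NTG pools spread widely, and NTG pool 3 came close to the SMC-IRF9-TG pools. Cdc45 and Mcm10, which help to start the helicase, differed by -0.24 and -0.06 and overlapped. The other Cdc45 probe set (1416575_at) overlapped as well, with a difference of 0.19. Cdc6 and Gins1 had NTG means under the lower quartile of their arrays (2.62), so their sizes are not given.

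Of the 4 E2F genes, 0 passed in limma, against 3.11% of all genes higher, and 0 of 4 cannot be told from that share. At an unadjusted limma p under 0.05, 1 of the 4 was higher, against 2706 of the 18193 genes. E2f8, a repressor that acts late in S phase, read 3.78, 3.48 and 3.38 in SMC-IRF9-TG pools, against 3.12, 3.06 and 3.04 in NTG pools, a difference of 0.47 (SE 0.19, limma adjusted p = 0.202), while its other probe set gave -0.30. E2f1, the best known activator of S phase genes, read 4.05, 3.60 and 3.94 in SMC-IRF9-TG pools, against 3.33, 3.63 and 3.98 in NTG pools. Its pools overlapped, with a difference of 0.21 (SE 0.23, limma adjusted p = 0.589). E2f2, another activator, overlapped at -0.17, and E2f7, a repressor like E2f8, was dim in NTG.

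**Figure D3:**
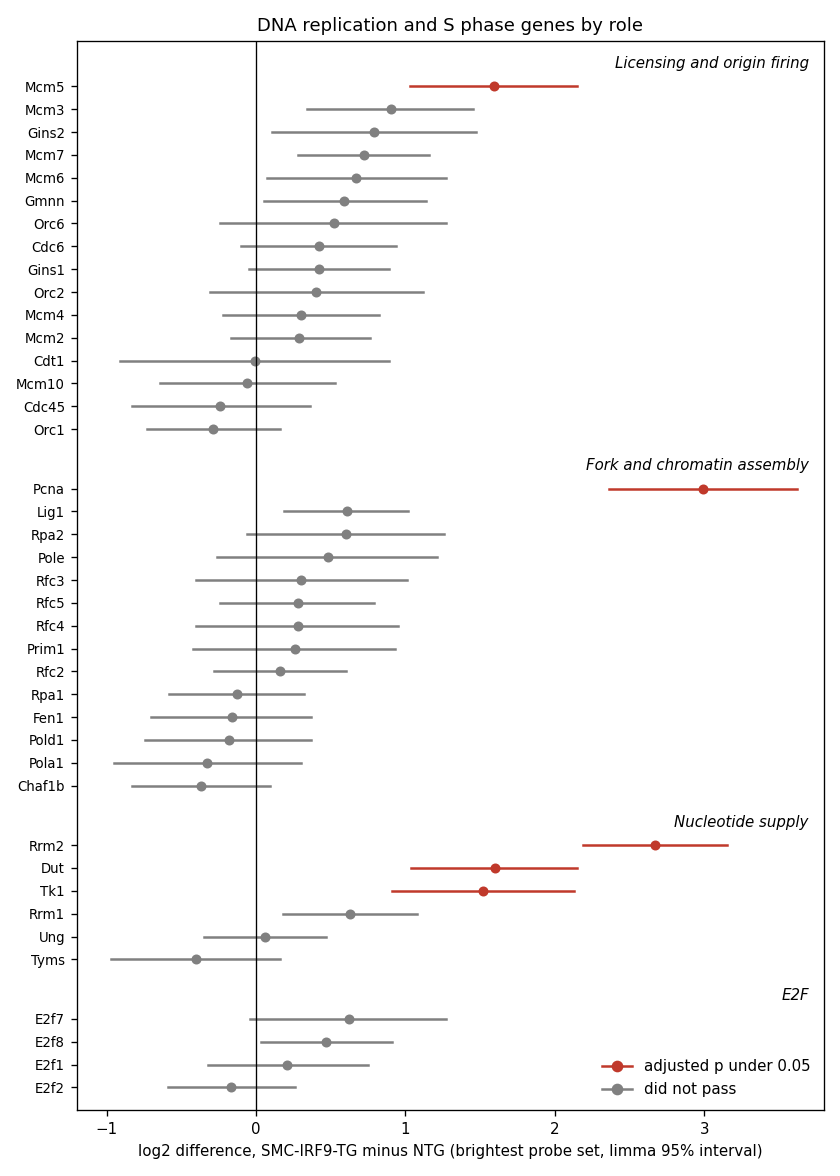
Log2 difference, SMC-IRF9-TG minus NTG (horizontal axis), of the 40 measured members by role, with limma 95% intervals; red marks an adjusted p under 0.05. A few genes stand to the right, Pcna at 2.99 and Rrm2 at 2.67 farthest, and the other 35 are grey; Tyms, Cdc6, Gins1 and E2f7 had a group mean under the lower quartile, so their plotted sizes are not taken as known, and the remaining 31 lie between -0.37 and 0.90.

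Among the 35 members that did not pass, 24 differences were above 0 and 11 below. Over all 40 members 72.5% of differences were above 0, against 46.3% of all genes. In the 31 of them with both group means above the lower quartile of their arrays, differences ran from -0.37 to 0.90. The 95% interval held 0 for 27 of the 35 and lay above 0 for 8. The 3 SMC-IRF9-TG pools were each above every NTG pool in 15 of the 40 members and each below in 3, against 16.1% of all genes above and 16.1% below. The 15 make up 37.5% of the members and the 3 make up 7.5%. The exact permutation test over pools cannot go below 0.1 (2-sided) with 3 against 3. Any gene without overlap takes that value, so the test adds nothing for these 18 genes. The 3 NTG pools varied more than the 3 SMC-IRF9-TG pools, and over all genes the median SD was 0.19 in SMC-IRF9-TG and 0.34 in NTG. In SMC-IRF9-TG, pool 3 was the highest of its group for 4 members, against 17 and 19 for pools 1 and 2.

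Probe sets of a gene often differed. In all, 86 probe sets name a member alone, and 30 members have several. Of these 30, 21 had probe sets of both signs. Among the 46 probe sets that were not the brightest of their gene, 23 had a negative difference and 1, of Rrm2, passed. A group mean under the lower quartile was found for 17 of the 46, of which 13 were negative, and 10 of the other 29 were negative. Across all 86, 6 were higher and 0 were lower. In the plot of level against difference, most of the dimmest probe sets had a negative difference. Negative differences were not confined to them. They were also found at higher levels, as on the brightest probe sets of Rpa1, Fen1 and Orc1.

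**Figure D4:**
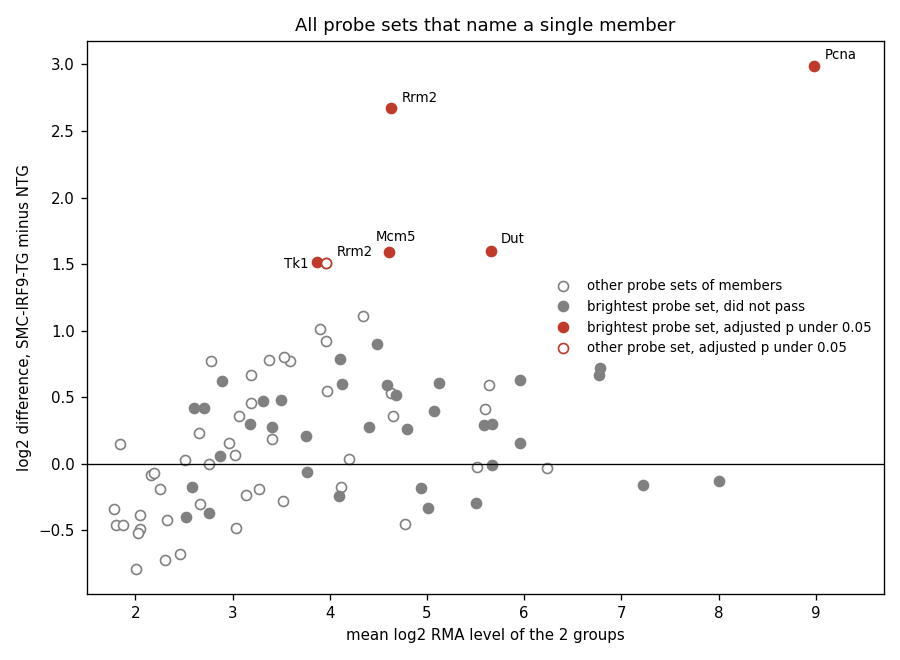
Log2 difference, SMC-IRF9-TG minus NTG (vertical axis), against the mean log2 RMA level of both groups (horizontal axis) for the 86 probe sets that name a single member; filled points are the brightest probe set of a gene and red marks an adjusted p under 0.05. The 6 red points lie above 1.5, and below a level of 2.5 most points lie under 0.

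Genes of replication outside the member list were counted in the same fit. Of 53 measured, 6 were higher in SMC-IRF9-TG and 0 were lower (11.3%, against 3.11% and 0.511% of all genes), with a median difference of 0.15. Dbf4, the activating subunit of the kinase that fires origins, read 5.47, 4.71 and 4.50 in SMC-IRF9-TG pools, against 2.79, 3.46 and 2.82 in NTG pools (difference 1.87, limma adjusted p = 0.0185). Topbp1, a scaffold of origin firing and of the replication checkpoint, read 6.03, 5.80 and 5.54 in SMC-IRF9-TG pools, against 3.08, 4.48 and 4.23 in NTG pools (difference 1.86, limma adjusted p = 0.034). Both genes act at the step between licensing and helicase activation, and in both the groups did not overlap. Dck, the deoxycytidine kinase of nucleotide salvage, differed by 1.76 (limma adjusted p = 0.0262). Uhrf1, which guides DNA methylation to new strands, differed by 1.74 (limma adjusted p = 0.0497). The remaining pair were Slbp, which binds histone mRNA, and Tfdp1, the dimer partner of E2F factors. The list was sensitive to the pools, with 0 genes higher without SMC-IRF9-TG pool 1 or pool 2 and 2, 2, 8 and 3 without SMC-IRF9-TG pool 3 and NTG pools 1, 2 and 3.

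Mitosis genes, which act later in the same cycle, had 10 of 31 higher and 0 lower (32.3%, against 3.11% and 0.511% of all genes), with a median difference of 1.06. Every SMC-IRF9-TG pool exceeded every NTG pool in 23 of 31 mitosis genes (74.2%), against 15 of 40 members (37.5%) and 16.1% of all genes. Without SMC-IRF9-TG pool 1, 2 or 3, 6, 5 and 5 of the 31 were higher. The difference between the lists was not tested.

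**Figure D5:**
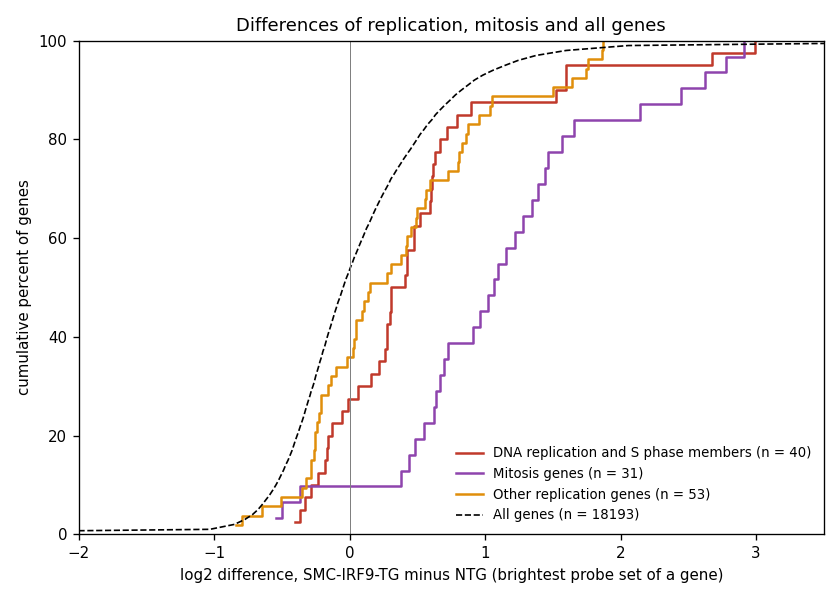
Cumulative percent of genes (vertical axis) against the log2 difference, SMC-IRF9-TG minus NTG (horizontal axis), for 40 members, 31 mitosis genes, 53 other replication genes and 18193 genes in all. The member curve has its median at 0.35, the mitosis curve at 1.06, the other replication curve at 0.15 and the curve of all genes at -0.05.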

How the data were processed

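Carotid arteries were profiled on 6 Affymetrix arrays, with 3 pools per genotype, from 400 ng of total RNA each. The deposited table holds 1 log2 level per probe set and array, computed by the authors with RMA (Affymetrix Expression Console, per the submitters' processing notes, without versions). RMA includes quantile normalization of the probe intensities before the summary over probes, so the deposited columns need not be equal in distribution. Array medians ran from 3.42 to 3.66, and lower quartiles from 2.33 to 2.41 in SMC-IRF9-TG and from 2.57 to 2.66 in NTG. Quantile normalization of the columns was therefore an alternative. Scanner files were not used here, so detection was not checked, and depth has no meaning for arrays: their number limits the precision. No further scaling was applied in the values reported.

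After leaving out 64 controls, 45037 of 45101 probe sets were tested with limma 3.58.1 (lmFit, eBayes) in R 4.3.3, 2-sided, with Benjamini-Hochberg adjustment and a threshold of 0.05. In the platform annotation, 34945 probe sets carry the name of 1 gene, 932 carry several names and 9160 carry no name. The methods name a t-test for 2 groups and nothing for the array, so that test was an alternative. Scripts were tested on simulated data. Python 3.11.15 (pandas 2.3.3, scipy 1.17.1, matplotlib 3.10.9) made the tables, permutations and figures.

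Values by pool are given for members that passed, with their other probe sets, and for the 2 brightest members of each of 4 groups. Lig1, Fen1, Tyms, Mcm3, Gmnn, Gins2, Cdt1, Orc1 and Chaf1b were added after their values were seen. So were further probe sets of Fen1, Cdt1, Mcm2, Mcm3, Pola1, Prim1, Pold1, Cdc45 and Chaf1b. Other replication genes are named by size of change, apart from Slbp and Tfdp1. Members and lists were chosen with earlier results of these data known. In 19 alternatives, scaling, filter, variance prior, array weights, test, replicate block, pools, probe set and threshold were changed.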

Additional observations from a re-analysis of the deposited data

How the results depend on the processing

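Members called higher numbered 5, and 2 to 6 when a single pool was left out; members called lower numbered 0 under every alternative run. Pcna and Rrm2 passed in all 6 such fits, Mcm5 in 4, Dut in 3 and Tk1 in 2. The methods' t-test gave 10 members higher and 0 lower at the methods' threshold without adjustment, and 0 after Benjamini-Hochberg. The share of all genes that pass this t-test without adjustment is not given here, so the 10 cannot be read against it. The count was 0 without SMC-IRF9-TG pools 1 and 2, 1 (of 30) on the second brightest probe set and 2 at an adjusted p under 0.01. The median member difference of 0.35 was 0.28 to 0.48 with a pool left out, 0.22 without SMC-IRF9-TG pools 1 and 2, 0.23 on gene means over probe sets and 0.17 on the second brightest. Other replication genes called higher numbered 6, against 1 after quantile normalization, 0 with the t-test, 0 to 8 with a pool left out, 3 without NTG pools 1 and 2, 0 without SMC-IRF9-TG pools 1 and 2, 3 on the gene mean, 1 on the second brightest probe set and 0 at an adjusted p under 0.01. Mitosis genes called higher numbered 10, against 0 with the t-test, 5 to 13 with a pool left out, 0 without SMC-IRF9-TG pools 1 and 2, 3 on the second brightest probe set and 5 at an adjusted p under 0.01. The cause was not tested.

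The deviations of same-numbered pools correlated at r of -0.15, -6.0e-04 and 0.027, and those of differently numbered pools at -0.12 to 0.13. With 3 pools per group such values cannot settle whether the numbers pair them. With the replicate block, 5 members passed, 3 other replication genes and 8 mitosis genes. Single differences were followed through the alternatives for 11 members only, and among these the sign reversed only in genes that did not pass. On the second brightest probe set, Mcm6 went to -0.03, Mcm7 to -0.02 and Rrm1 to -0.17. On that probe set E2f8 went to -0.30, E2f1 to -0.28 and Rpa1 to 0.41. Rpa1 went to 0.14 and E2f1 to -0.02 on the gene mean, and to 0.09 and -0.12 without NTG pools 1 and 2. Members outside these 11, such as Fen1, Pold1 and Prim1, also had probe sets of both signs. Among all called genes 85.9% were higher, 92.7% with each array centred on its median (6 members, Mcm3 added) and 74.2% after quantile normalization (4 members, Dut lost). Dim probe sets and 3 pools per group limit what could be detected.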
